A study of Mus musculus with 12 samples.

Results

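Dorsal root ganglia, where the cell bodies of sensory neurons lie next to the spinal cord, express genes that build the sugar chains of membrane glycolipids. Described here are 8 glycosyltransferase genes, Ugcg, St3gal5, B4galnt1, St8sia1, A4galt, A3galt2, Ggta1 and Gcnt4, out of 35583 genes listed, and all 8 were among the 18875 genes tested. They were chosen by their known place in globoside and ganglioside synthesis and by how they differed between YAC Q84 and WT libraries in these same data. Their values in that comparison are therefore given as a description. Poly(A) RNA came from ganglia of mice aged 24 weeks that were either wild type (WT) or YAC Q84. YAC Q84 mice carry the human ATXN3 gene with an expanded CAG repeat on a yeast artificial chromosome. By label there were 6 WT libraries (3 male, 3 female) and 6 Q84 libraries (1 male, 5 female), with 66490481 to 86891563 estimated counts per library. The labels give neither the strain, the number of transgene copies nor whether the libraries of a group stem from different animals. Any p-value thus measures the spread between libraries.

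In 2 libraries the genotype label and the RNA disagreed. The Atxn3 transcript of 1000 bases, which can take up reads of the human transgene, stood at 62.7 to 79.4 TPM (transcript level scaled to length and library total) in Q84 male 1 and Q84 female 1 to 4. In WT male 1 to 3 and WT female 1 and 3 it stood at 0 to 0.285 TPM. It was at 0.0612 TPM in Q84 female 5 and at 34.0 TPM in WT female 2, against both labels. No library was moved to another group. Results are given for the 12 libraries as labelled and for the 10 libraries without these 2, and the values of both are stated for each gene. Neuronal RNA was visible in the markers: 8 of 8 pan-neuronal genes were detected, with a summed level of 6523 to 9945 TPM. These genes do not tell ganglia from other neural tissue.

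Glycosphingolipids are lipids of the outer membrane leaflet whose sugar chain is built stepwise on ceramide in the Golgi. Ugcg adds the first glucose, B4galt5 and B4galt6 then add galactose to make lactosylceramide, and at that point the pathway branches. St3gal5 adds sialic acid to make ganglioside GM3, St8sia1 adds another to make GD3, and B4galnt1 extends these into the complex gangliosides that are abundant in neurons. A4galt makes Gb3, the precursor of globoside, from lactosylceramide, and A3galt2 makes the Gb3 isomer isoglobotriaosylceramide. Ggta1, a relative of A3galt2, caps sugar chains of glycoproteins and glycolipids with the alpha-galactose epitope that Old World primates lack. Gcnt4 belongs to the family that starts core 2 branches on O-glycans of proteins, so the name of the group does not describe it.

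The sequence before the start site is shown for A3galt2 and Gcnt4, the genes with the widest differences between the groups, and for A4galt, which with Gcnt4 separated the labelled groups completely. Each is the 250 bases that precede a RefSeq start on assembly GRCm38.p6, read 5′ to 3′ on the gene's strand. RefSeq promoters were matched for 7 of the 8 genes, all but B4galnt1. Capitals mark matches on either strand to the GC box GGGCGG, which 32.7% of 32851 promoter windows of this length hold, to CCAAT (33.8%), to TATAAA (12.4%) or to the RUNX core TGTGGT (14.0%). No matches overlapped in these windows.
A3galt2, chr4:128759008-128759257, plus strand: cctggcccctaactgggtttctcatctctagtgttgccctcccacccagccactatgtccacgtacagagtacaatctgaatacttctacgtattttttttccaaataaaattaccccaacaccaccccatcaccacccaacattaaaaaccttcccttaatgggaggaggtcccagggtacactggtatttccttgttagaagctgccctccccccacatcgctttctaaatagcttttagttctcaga
A4galt, chr15:83251730-83251979, minus strand: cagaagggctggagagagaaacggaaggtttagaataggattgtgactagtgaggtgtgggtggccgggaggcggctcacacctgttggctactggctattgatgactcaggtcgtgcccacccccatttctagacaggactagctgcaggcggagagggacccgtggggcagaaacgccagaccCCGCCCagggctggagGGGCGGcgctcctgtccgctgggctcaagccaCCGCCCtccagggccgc
Gcnt4, chr13:96924463-96924712, plus strand: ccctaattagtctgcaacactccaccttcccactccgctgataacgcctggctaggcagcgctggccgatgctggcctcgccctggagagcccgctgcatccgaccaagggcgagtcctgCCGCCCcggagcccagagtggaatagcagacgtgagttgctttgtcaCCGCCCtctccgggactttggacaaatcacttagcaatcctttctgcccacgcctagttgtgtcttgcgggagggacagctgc

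The 3 windows differed in composition. The A3galt2 window held none of the 4 motifs and 46.4% G and C, below the median of 52.4% over all windows. The A4galt window held 3 GC boxes and 64.0% G and C. The Gcnt4 window held 2 GC boxes and 61.2%, and a window at another Gcnt4 start held 1 CCAAT match and 48.8%. Among the other genes, Ugcg had 2 GC boxes and 80.4% G and C, St3gal5 had 2 GC boxes and 1 CCAAT match, St8sia1 1 of each, and Ggta1 a GC box and a TATAAA match. None of the windows held the RUNX core. These matches describe letters only.

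Per transcript length the 8 genes spanned a wide range of levels. Ugcg was highest, with a median of 55.9 TPM over the 12 libraries (37.9 to 76.8). St3gal5 followed at 34.2 TPM, A4galt at 23.4, Ggta1 at 19.4, A3galt2 at 12.5, St8sia1 at 8.56, B4galnt1 at 2.56 and Gcnt4 at 0.752 TPM. Ranges of neighbours in this order overlapped down to St8sia1, while St8sia1 lay above B4galnt1, and B4galnt1 above Gcnt4, in 12 of 12 libraries with no overlap. A3galt2 moved across this order. Its median was 17.3 TPM in the 5 WT libraries and 2.60 TPM in the 5 Q84 libraries, where St8sia1 (6.75 TPM) stood above it. The 8 genes lie on 6 chromosomes, with Ugcg and A3galt2 on chromosome 4 and St3gal5 and St8sia1 on chromosome 6. B4galnt1 shares exon sequence with Slc26a10 on the opposite strand, which was at 0.214 to 1.01 CPM (counts scaled to library size).

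All 8 genes had a lower fitted level in Q84, and the number called depended on the 2 doubted libraries. With 12 libraries as labelled, 0 of the 8 were called by edgeR's quasi-likelihood test at an adjusted p of 0.05, where 0.0053% of all genes tested (1 gene) were called. At an unadjusted p under 0.05 there were 7 of the 8, beside 2695 of the 18875 genes tested. DESeq2 called 3 of the 8 (3.28% of all genes) and limma-voom 0 (0.0053%). With 10 libraries, 6 of the 8 were called lower and 0 higher, where 4.93% of all genes were called lower, 1.52% higher and 6.45% in either direction. Ugcg, St8sia1, A4galt, A3galt2, Ggta1 and Gcnt4 were the 6, and St3gal5 and B4galnt1 were not called. The median log2 fold change of the 8 was -0.55 with 12 libraries and -0.68 with 10, and that of all genes tested was 0.01 in both. Since the genes were selected on this contrast, these counts carry no weight beyond description. In bulk tissue, fewer cells of a type and less RNA per cell cannot be told apart.

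**Figure D1:**
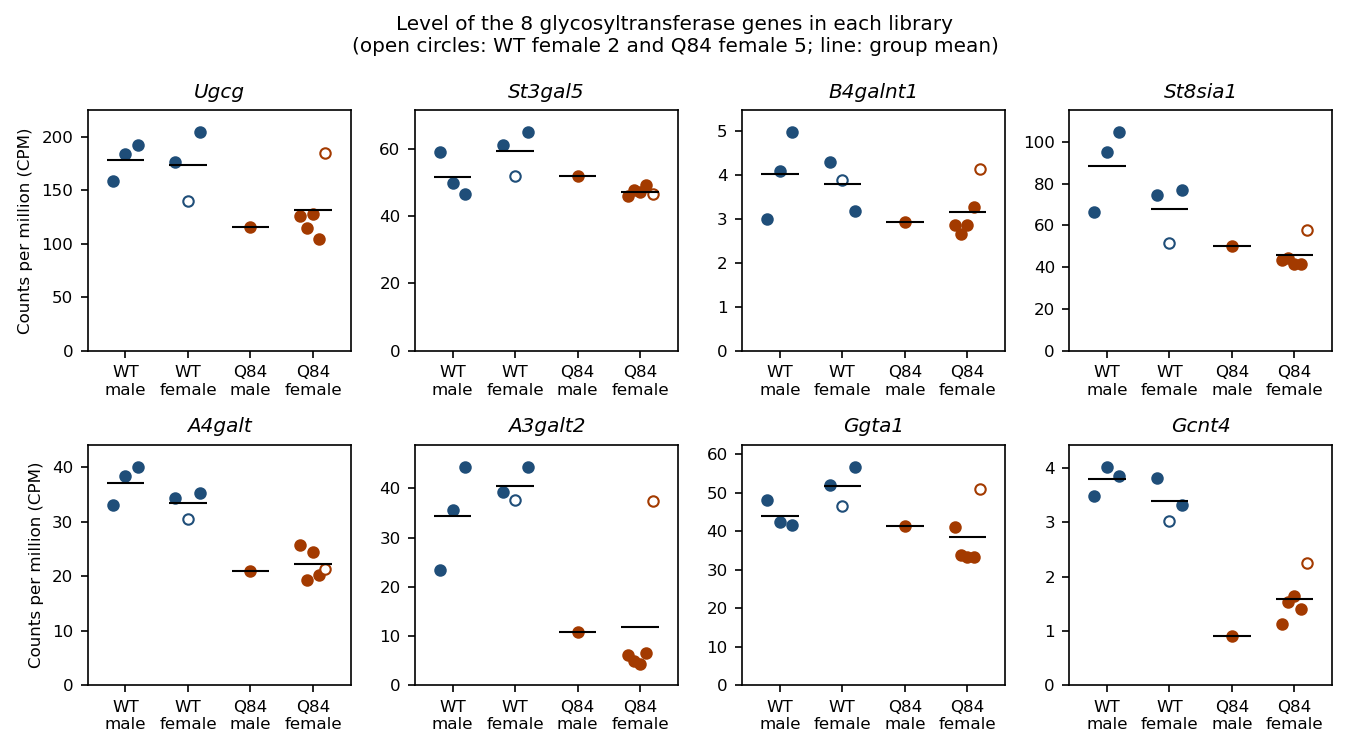
CPM of each gene (vertical axes, linear from 0) in the 12 libraries by labelled genotype and sex, with 1 point per library, a line at each group's mean and open circles for WT female 2 and Q84 female 5. In A4galt and Gcnt4 all 6 Q84 points lie below all 6 WT points, and in A3galt2 the open Q84 circle at 37.5 CPM lies among the WT points.

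The order of the groups by library was examined in the same way. Every Q84 library lay below every WT library in 2 of the 8 genes with 12 libraries, A4galt and Gcnt4, where 1.15% of all genes tested did so. With 10 libraries it was 6 of the 8, where 5.93% of all genes did so, and these were the same 6 genes that were called. These counts are by CPM. In TPM the 10 libraries overlapped for Ggta1, with Q84 male 1 at 19.3 TPM and WT male 3 at 19.1 TPM.

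Ugcg, which makes glucosylceramide, is the entry to the pathway. It read 158, 184 and 192 CPM in WT male 1, 2 and 3 and 176 and 204 CPM in WT female 1 and 3. It read 115 CPM in Q84 male 1 and 126, 115, 128 and 104 CPM in Q84 female 1 to 4. These groups did not overlap, but WT female 2 at 140 CPM was the lowest WT library and Q84 female 5 at 185 CPM lay inside the WT range. The mean was 183 ± 17.2 against 118 ± 9.70 CPM (SD, n = 5 each). Its log2 fold change was -0.66 (SE 0.09) with 10 libraries and -0.46 (SE 0.15) with 12.

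St3gal5, which makes the GM3 from which the other gangliosides derive, differed least. It read 58.9, 49.8 and 46.5 CPM in the WT males and 60.9 and 64.9 CPM in WT female 1 and 3. It read 52.0 CPM in Q84 male 1 and 46.0, 47.6, 47.0 and 49.2 CPM in Q84 female 1 to 4. The groups overlapped, since WT male 3 lay below 4 of these 5 Q84 libraries. WT female 2 held 51.7 CPM and Q84 female 5 held 46.4 CPM. With 10 libraries the log2 fold change was -0.26 (SE 0.10) and with 12 it was -0.23 (SE 0.09), and neither was called.

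St8sia1, the GD3 synthase, had its widest spread among WT libraries. It read 66.1, 95.2 and 105 CPM in the WT males and 74.5 and 77.1 CPM in WT female 1 and 3. It read 50.1 CPM in Q84 male 1 and 43.2, 44.5, 41.3 and 41.6 CPM in Q84 female 1 to 4. Both doubted libraries fell in the gap between these groups, WT female 2 at 51.7 CPM and Q84 female 5 at 57.7 CPM. The mean was 83.5 ± 15.8 against 44.1 ± 3.59 CPM (SD, n = 5 each). The log2 fold change was -0.83 (SE 0.12) with 10 libraries and -0.64 (SE 0.15) with 12.

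B4galnt1, which extends GM3 and GD3 to GM2 and GD2, was low throughout. It read 3.01, 4.10 and 4.98 CPM in the WT males and 4.31 and 3.19 CPM in WT female 1 and 3. It read 2.94 CPM in Q84 male 1 and 2.86, 2.65, 2.87 and 3.28 CPM in Q84 female 1 to 4. The groups overlapped through Q84 female 4, which lay above WT male 1 and WT female 3. WT female 2 held 3.89 CPM and Q84 female 5 held 4.14 CPM. Its log2 fold change was -0.40 (SE 0.17) with 10 libraries and -0.32 (SE 0.17) with 12, and neither was called.

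A4galt, the Gb3 synthase, separated the labelled groups completely. It read 33.1, 38.4 and 40.1 CPM in the WT males and 34.4, 30.4 and 35.3 CPM in WT female 1, 2 and 3. It read 20.99 CPM in Q84 male 1 and 25.7, 19.3, 24.4, 20.2 and 21.4 CPM in Q84 female 1 to 5. Q84 female 5, without the Atxn3 transcript, was at the level of the other Q84 libraries in this gene, and WT female 2 was the lowest WT library. The mean was 36.2 ± 2.93 against 22.1 ± 2.79 CPM without those 2 libraries (SD, n = 5 each). The log2 fold change was -0.70 (SE 0.11) with 10 libraries and -0.65 (SE 0.10) with 12.

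A3galt2, the isoglobotriaosylceramide synthase, had the widest difference of the 8. It read 23.3, 35.7 and 44.3 CPM in the WT males and 39.3 and 44.5 CPM in WT female 1 and 3. It read 10.8 CPM in Q84 male 1 and 6.10, 4.87, 4.34 and 6.62 CPM in Q84 female 1 to 4. Both doubted libraries were at the WT level, WT female 2 at 37.6 CPM and Q84 female 5 at 37.5 CPM. The mean was 37.4 ± 8.70 against 6.55 ± 2.57 CPM (SD, n = 5 each). Its log2 fold change was -2.46 (SE 0.27) with 10 libraries, a 5.49-fold lower level, and -1.74 (SE 0.58) with 12.

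Ggta1, the alpha-galactose transferase, had a gap of less than 1 CPM between its groups. It read 48.1, 42.3 and 41.7 CPM in the WT males and 52.1 and 56.8 CPM in WT female 1 and 3. It read 41.5 CPM in Q84 male 1 and 41.2, 33.8, 33.3 and 33.2 CPM in Q84 female 1 to 4. WT female 2 held 46.5 CPM, and Q84 female 5 held 51.0 CPM, above 4 of the 6 WT libraries. For Ggta1 the log2 fold change was -0.43 (SE 0.11) with 10 libraries and -0.33 (SE 0.12) with 12. Its call with 10 libraries was the least firm of the 6: it was lost in 10 of 18 alternative fits, including limma-voom, length-scaled TPM and the fits without WT male 2, WT female 1 or 3, or any of Q84 female 1 to 4.

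Gcnt4, the O-glycan branching enzyme, was the lowest of the 8 and rested on 68 to 341 estimated counts per library. It read 3.49, 4.03 and 3.86 CPM in the WT males and 3.82, 3.03 and 3.32 CPM in WT female 1, 2 and 3. It read 0.907 CPM in Q84 male 1 and 1.12, 1.54, 1.63, 1.40 and 2.26 CPM in Q84 female 1 to 5. The labelled groups did not overlap, and the 2 doubted libraries were the lowest WT and the highest Q84 library. The mean was 3.70 ± 0.291 against 1.32 ± 0.301 CPM without them (SD, n = 5 each). The log2 fold change was -1.57 (SE 0.19) with 10 libraries, a 2.98-fold lower level, and -1.34 (SE 0.22) with 12.

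**Figure D2:**
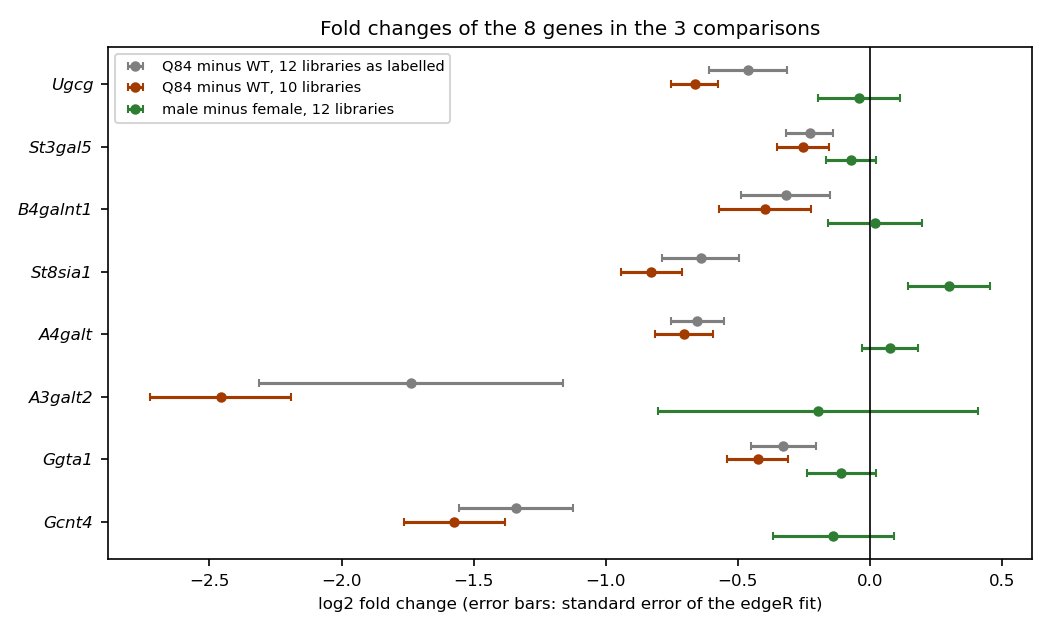
Fitted log2 fold change (horizontal axis) of each gene with its standard error for Q84 against WT with 12 and with 10 libraries and for male against female. The 10-library values run from -2.46 (A3galt2) to -0.26 (St3gal5), and the sex values run from -0.20 (A3galt2) to 0.30 (St8sia1).

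The 2 doubted libraries took no common place across the 6 genes called with 10 libraries. On the log2 CPM scale, with the mean of the 5 WT libraries set to 0% and that of the 5 Q84 libraries to 100%, Q84 female 5 lay at -1.53% for A3galt2, -3.34% for Ugcg and -23.2% for Ggta1. It lay at 46.9% for Gcnt4, 56.8% for St8sia1 and 105.3% for A4galt. The median over the 923 genes called lower was 6.06%, and 95.02% of these genes placed this library below its place in A4galt. WT female 2 lay at -1.70% for A3galt2, 10.6% for Ggta1, 18.9% for Gcnt4, 34.5% for A4galt, 60.3% for Ugcg and 74.1% for St8sia1, beside a median of 42.1%. The choice of the genes had used both libraries, so these places are a description.

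**Figure D3:**
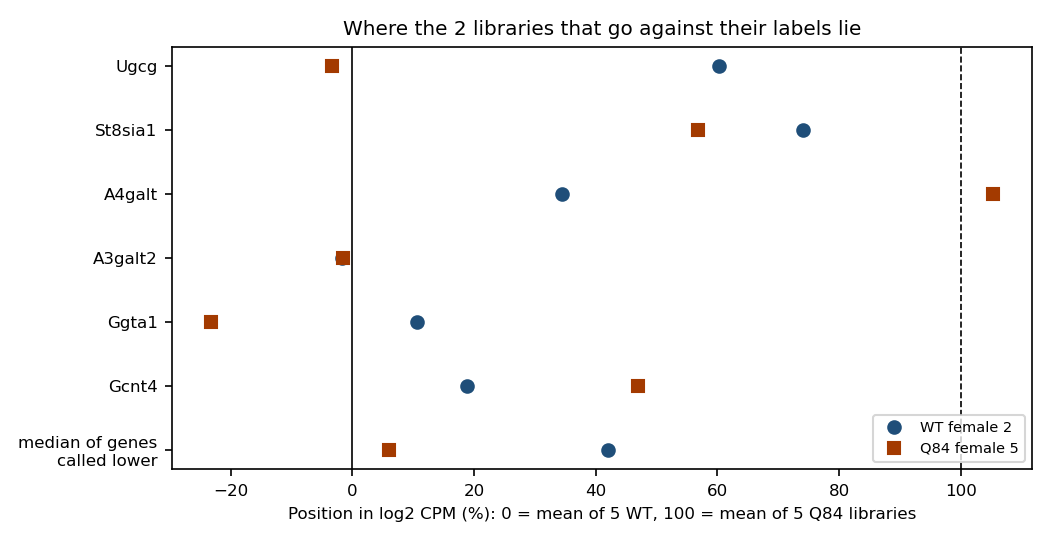
Position of WT female 2 (circles) and Q84 female 5 (squares) on the log2 CPM scale, in percent of the way from the mean of 5 WT (0) to the mean of 5 Q84 libraries (100), for the 6 genes and as the median of 923 genes. The square for A4galt lies at 105.3%, and both symbols for A3galt2 lie just below 0.

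Sex was a comparison that had no part in choosing the genes. With genotype in the model, 0 of the 8 genes were called between males and females, where 0.0636% of all genes tested were called (12 genes, edgeR). At an unadjusted p under 0.05 were 0 of the 8, beside 721 of the 18875 genes tested. DESeq2 and limma-voom also called 0 of the 8. The largest difference was that of St8sia1, higher in males by 0.30 on the log2 scale with a 95% interval of -0.03 to 0.63. Ugcg had -0.04 (-0.38 to 0.30), St3gal5 -0.07 (-0.28 to 0.13), B4galnt1 0.02 (-0.37 to 0.40), A4galt 0.07 (-0.15 to 0.30) and Ggta1 -0.11 (-0.39 to 0.17). A3galt2 at -0.20 (-1.54 to 1.15) and Gcnt4 at -0.14 (-0.63 to 0.35) had the widest intervals. Only 1 of the 4 male libraries was Q84, and differences of the size of these intervals were not detectable here. Genotype in this model was taken from the labels, the 2 doubted libraries included.

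The transcripts behind the gene levels were examined next, since a gene total can hide a change of isoform. A single protein-coding transcript carried nearly all counts of Ugcg, St8sia1 and A3galt2, with medians over 99% of the gene's counts in the 5 WT and in the 5 Q84 libraries, and Gcnt4 had 1 listed transcript. St3gal5-201 held a median of 95.2% in WT and 95.4% in Q84. With 10 libraries the separation of A4galt was shared by its 2 main transcripts. A4galt-202 stood at 14.4 to 20.8 TPM in the 5 WT libraries and 7.83 to 11.5 TPM in the 5 Q84 libraries, and A4galt-201 at 8.56 to 11.6 and 5.36 to 7.74 TPM. In Q84 female 5 the balance was different: A4galt-201 held 58.2% of counts, against 32.8 to 46.7% in the 11 other libraries, and A4galt-202 stood at 6.50 TPM, the lowest of all 12. A4galt-201 stood at 8.59 TPM in Q84 female 5, inside the WT range, so this transcript did not separate the 12 libraries as labelled.

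For Ggta1 the lower level lay in some transcripts more than others. Ggta1-203, its most abundant transcript, stood at 8.48 to 8.77 TPM in the 5 WT libraries and 4.15 to 7.40 TPM in the 5 Q84 libraries, without overlap. WT female 2 held 7.97 TPM and Q84 female 5 held 5.15 TPM, on the side of their labels. Ggta1-202 overlapped, at 2.31 to 5.06 TPM in WT and 2.72 to 4.11 TPM in Q84, and was highest in Q84 female 5 at 6.27 TPM. Ggta1-204 and Ggta1-205 overlapped as well. B4galnt1-201, the coding form, held a median of 71.5% of the gene's counts in WT and 65.0% in Q84, and a retained-intron form, B4galnt1-205, 22.6% and 30.6%. Such divisions of reads between overlapping transcripts are estimates, and no test was made on them.

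**Figure D4:**
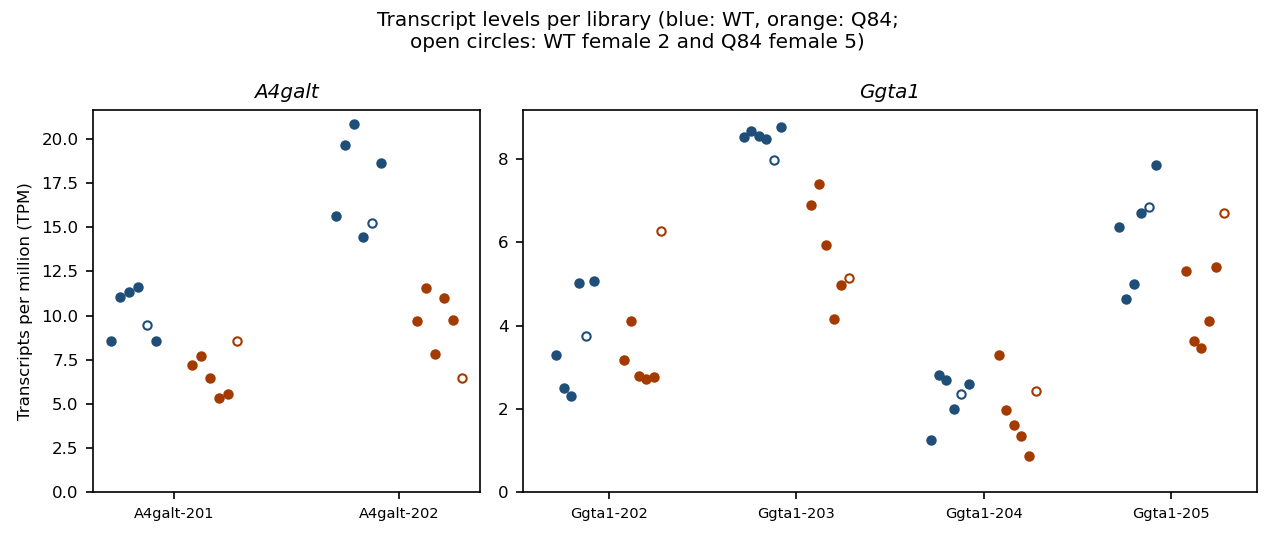
TPM of the 2 main transcripts of A4galt and of 4 transcripts of Ggta1 (vertical axes, linear from 0) in each library, WT in blue, Q84 in orange and the 2 doubted libraries as open circles. A4galt-202 lies at 14.4 to 20.8 TPM in the WT and at most 11.5 TPM in the Q84 libraries, and Ggta1-203 separates the groups while Ggta1-202 does not.

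The other genes of these pathways mostly did not pass the test. From 8 lists with 83 genes, 80 were tested with 10 libraries, of which 7 were called lower by edgeR (8.75%, beside 4.93% of all genes), 2 higher (1.52% of all genes were) and 71 not, with a median log2 fold change of -0.00. With 12 libraries edgeR called 0, DESeq2 3 lower and 1 higher, and limma-voom 0. At an unadjusted p under 0.05 in edgeR were 15 of the 80 with 12 libraries, beside 2695 of 18875 genes tested. With 10 libraries these were 20 of the 80, beside 3785 of 18721. The calls below are those of edgeR with 10 libraries. DESeq2, which called 10.3% of all genes there, added Sptlc3, B4galt5 and Cmah on the lower side, and limma-voom, which called 5.97%, added none. Before the branch point, 0 of 15 genes of ceramide and galactosylceramide synthesis were called by edgeR (3 at an unadjusted p under 0.05). These 3 were Cers6 (-0.23) and Sptlc3 on the lower side and Sptssa (0.26) on the higher side. Sptlc3 was at 0.231 CPM or less on average in either group. Neither lactosylceramide synthase was called by edgeR. B4galt5 had a log2 fold change of -0.50 (SE 0.14) and was called in 5 of 18 alternative fits, and B4galt6 had -0.06 (SE 0.09).

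After the branch point, 2 of 11 other ganglio-series transferases fell and 9 did not pass. St6galnac3, which adds sialic acid to form alpha-series gangliosides, went from 15.5 ± 1.69 to 8.06 ± 1.11 CPM (log2 fold change -0.96, edgeR, adjusted p = 0.000803), and the related St6galnac5 from 25.8 ± 4.86 to 11.7 ± 2.21 CPM (-1.08, edgeR, adjusted p = 0.00184; SD, n = 5 each). In Q84 female 5 they stood at 16.2 and 32.6 CPM, and in WT female 2 at 11.1 and 19.6 CPM. Of 10 tested genes of globo-, lacto- and blood-group synthesis, St3gal4, a sialyltransferase, fell (-0.39, edgeR, adjusted p = 0.0248) and 9 did not pass. B3galnt1, which turns Gb3 into globoside, was among the 9, at 67.6 ± 3.71 and 73.4 ± 8.27 CPM (SD, n = 5 each).

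Among the 9 tested O-glycan transferases, 3 fell and 6 did not pass. Gcnt2, an abundant relative of Gcnt4 that branches poly-lactosamine chains, went from 577 ± 39.4 to 391 ± 28.9 CPM (-0.56, edgeR, adjusted p = 0.0014). Gcnt7 went from 1.02 ± 0.195 to 0.277 ± 0.108 CPM (-1.74, edgeR, adjusted p = 0.00209) and Galnt3, which starts O-glycans, from 6.60 ± 1.06 to 3.62 ± 0.378 CPM (-0.92, edgeR, adjusted p = 0.00247; SD, n = 5 each). Gcnt1, the best-known core 2 enzyme, had a log2 fold change of 0.55 and did not pass. Q84 female 5 held 504 CPM of Gcnt2, 1.12 CPM of Gcnt7 and 7.14 CPM of Galnt3, and WT female 2 held 509, 0.539 and 5.52 CPM.

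Breakdown and supply gave 1 call among their tested genes. Of 17 tested genes of glycolipid and sphingolipid breakdown, Asah2, a ceramidase, rose (0.31, edgeR, adjusted p = 0.0398) and 16 did not pass. Of 10 genes that supply CMP-sialic acid and nucleotide sugars 0 passed with edgeR, among them Cmah (-0.78, called in 3 of 18 alternative fits) and Nans (-0.34). At an unadjusted p under 0.05 were 2 of the 10, beside 3785 of 18721 genes tested. Of 6 genes listed under glycolipid transfer and ganglioside binding, Plekha8, which carries glucosylceramide, fell (-0.35, edgeR, adjusted p = 0.0304). Siglech, a Siglec family receptor of plasmacytoid dendritic cells and microglia whose binding of sialic acid is not established, rose (0.79, edgeR, adjusted p = 0.0306). The calls of St3gal4, Asah2, Plekha8 and Siglech were lost in 6, 11, 11 and 9 of 18 alternative fits.

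**Figure D5:**
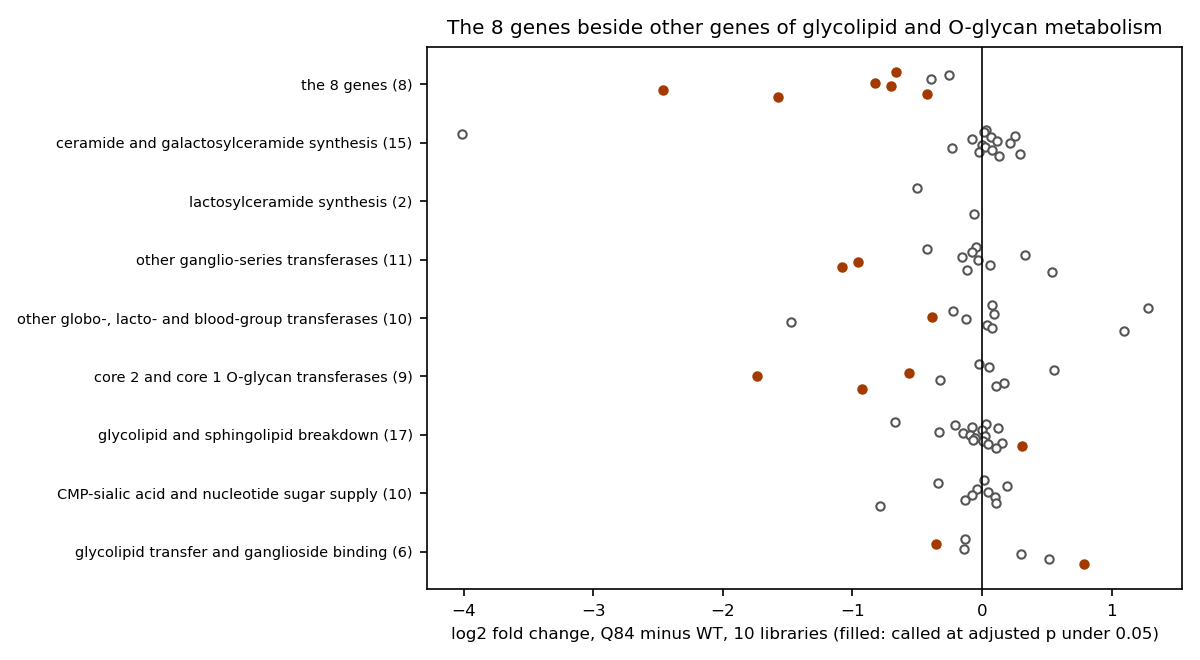
Log2 fold change of Q84 against WT with 10 libraries (horizontal axis) for the 8 genes and for each gene of the 8 pathway lists, 1 point per gene, filled where called. The 8 genes all lie below 0, but they were chosen by how they differed in this contrast, so their place beside the lists is a description. The points of the 8 lists lie on both sides with a median of -0.00, and the point near -4.01 is Sptlc3, a barely detected gene.

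Part of the markers of sensory neuron types were also lower in the same 10 libraries. The non-peptidergic nociceptor list, markers of small unmyelinated pain and itch neurons, had 9 of 12 genes called lower by edgeR and 0 higher (median -1.11), beside 4.93% of all genes called lower. Among them were Mrgprd (-2.51), P2rx3 (-1.21), Lpar3 (-1.59), Lpar5 (-1.63), Prkcq (-1.11), Plxnc1 (-0.68), Gfra2 (-1.27) and Mrgpra3 (-0.98). Its summed level was 468 to 856 TPM in the 5 WT libraries and 304 to 437 TPM in the 5 Q84 libraries, 675 TPM in WT female 2 and 770 TPM in Q84 female 5. Of peptidergic nociceptor genes 4 of 7 were lower, Calca (-0.97), Calcb (-1.13), Tac1 (-0.59) and Adcyap1 (-0.57), with a summed level of 4705 to 5755 against 2506 to 3299 TPM. Of large myelinated neuron genes 3 of 9 were lower, Nefl (-0.50), Ntrk2 (-0.37) and Calb1 (-0.82), with 1033 to 1624 against 891 to 1329 TPM, and the call of Nefl was lost in 10 of 18 alternative fits. The other 6 were not called and ran from -0.69 (Spp1) to 0.58 (Pvalb), with Pvalb alone on the higher side. Of pan-neuronal genes 0 of 8 were called by edgeR, DESeq2 or limma-voom (7198 to 9945 against 6523 to 8163 TPM). At an unadjusted p under 0.05 in edgeR were 2 of these 8, beside 3785 of 18721 genes tested. With 12 libraries as labelled edgeR called 0 genes of these 4 lists, with medians of -0.71, -0.47, -0.25 and -0.16 in that order, and DESeq2 called 5. At an unadjusted p under 0.05 in edgeR were then 16 of their 36 genes, beside 2695 of 18875 tested. The part of these cell types in the levels of the 8 genes was not tested.

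Calls in the lists of other cells were few with 10 libraries. With edgeR no gene was called among 6 of satellite glia, 7 of Schwann cells, 8 of endothelium, 7 of macrophages, 5 of red blood cells, 4 of skeletal muscle and 4 of adipocytes. At an unadjusted p under 0.05 were 1, 0, 4, 2, 5, 0 and 2 of them in that order, beside 3785 of all 18721 genes tested. Among these 7 lists DESeq2 called Kdr, Hba-a1 and Plin1 higher and Egfl7 lower, and limma-voom called Hba-a1 and Plin1 higher. The red blood cell list had a median of 1.34, with 596 to 3438 TPM in WT and 1593 to 6780 TPM in Q84. Skeletal muscle genes ran from 5.25 to 321 TPM in WT and from 5.34 to 1271 TPM in Q84, and adipocyte genes from 6.07 to 20.1 and from 7.70 to 144 TPM. Among fibroblast genes Pdgfra was called higher by edgeR (1 of 6), and DESeq2 added Col1a2. The 6 had log2 fold changes of 0.16 (Lum) to 0.61 (Pdgfra), a median of 0.52, and 4 were at an unadjusted p under 0.05 in edgeR. Among pericyte and smooth muscle genes Rgs5 was lower (1 of 6, -1.38), and the other 5 had log2 fold changes of 0.34 (Tagln) to 0.73 (Kcnj8) and were not called by edgeR, with a list median of 0.57. DESeq2 called Kcnj8 higher as well. Of 4 epithelial keratins Krt13, Krt14 and Krt15 were called lower by edgeR, calls lost in 10 of 17, 6 of 15 and 7 of 15 alternative fits, limma-voom among them each time. Krt5 was called lower by DESeq2 only. Krt13 had -7.38 with the 10 libraries and -1.40 without WT female 1. The keratin list summed to 0.163 to 154 TPM in WT and to at most 0.228 TPM in Q84. What these tissues contribute to the 8 genes was not tested.

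The genes most like A4galt and Gcnt4 over the 12 libraries were found by the root mean square distance of their scaled log2 CPM, among 10427 genes with a mean of 5 CPM or more. For A4galt these were Reep5 (distance 0.234), Chrna7, a nicotinic acetylcholine receptor subunit (0.273), and Gm45881 (0.283), where the median gene had a distance of 1.35. Chrna7 went from a mean of 82.7 CPM in the 5 WT libraries to 35.3 in the 5 Q84 libraries, and like A4galt it was low in Q84 female 5, at 37.1 CPM. For Gcnt4 they were Cmc4 (0.271), Kcnip1 (0.274) and Kcns3 (0.288), Kcnip1 and Kcns3 being a binding protein and a subunit of potassium channels, with a median of 1.38 over all genes. For A3galt2, added after its values were seen, they were Mrgprd (0.156), Hal (0.172) and Il31ra (0.195), with a median of 1.35. Mrgprd, a receptor of non-peptidergic nociceptors, had a mean of 81.7 CPM in the 5 WT libraries and 13.5 CPM in the 5 Q84 libraries. Mrgprd stood at 89.8 CPM in WT female 2 and 73.7 CPM in Q84 female 5. A4galt, Gcnt4 and A3galt2 were chosen in part by their difference between Q84 and WT in these same 12 libraries. A gene with a similar difference and a similar place of the doubted libraries can lie near them for that reason alone. The distances are therefore a description, and a link between these genes beyond that difference was not tested.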

How the data were processed

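Poly(A) RNA of 12 dorsal root ganglion libraries was measured. The deposited tables give, per the file headers, estimated counts, TPM and an effective length for 116313 transcripts. Estimated counts were made by the authors for each transcript, without scaling across libraries. Deposited TPM are corrected for transcript length and library total. Per the submitters' processing notes, STAR 2.7.10b, kallisto 0.46.2 and GRCm39 were used, with no role stated for either tool. The strand setting and transcript release are not given in the sources used here.

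Transcripts were assigned to genes by Ensembl identifier in GENCODE M21 (GRCm38), where 98.3% matched. The unmatched ones held 0.751 to 0.804% of counts and were left out. Because the builds differ, coordinates are given only for RefSeq promoters, on GRCm38.p6. Expected counts were summed per gene, rounded, filtered with filterByExpr, scaled with TMM and tested with the robust quasi-likelihood test of edgeR 4.0.16 (R 4.3.3) with Benjamini-Hochberg adjustment over all genes at a threshold of 0.05. The model held genotype and sex, with 18875 genes in 12 and 18721 in 10 libraries. The steps were also run on simulated counts with no sex effect and no library against its label, and the outcome is not reported here. CPM use the TMM scaling of the 12 libraries.

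The 8 genes, the 22 lists, the 10-library fit and the tests were chosen with earlier results of these data known. Named genes were the 8, each gene of a list called in either fit or else the 2 with the smallest p (cell lists without a call are given by their counts, other list genes named were picked after their values were seen, and 1 called list gene is not reported here), and the 3 genes nearest to A4galt and to Gcnt4. Alternatives were DESeq2 1.42.0, limma-voom (limma 3.58.1), other scaling, no filter, length-scaled TPM, a replicate block, females or WT only, and each library left out. No 2 libraries of a group agreed within sampling noise (chi-square per degree of freedom 30.9 or more over 16 pairs). WT male 1 had 145 and 202 against WT male 2 and 3, while WT male 2 against 3 had 30.9. Q84 female 5 had 128.9 to 198.5 against the other Q84 females. WT male 1 was kept among the 10 libraries.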

Additional observations from a re-analysis of the deposited data

Results flagged for a closer look

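Among 24 groups of 4 to 6 libraries examined for the 8 genes, 4 held a library far from the others, where chance flags about 1 in 20 groups, and the library was Q84 female 5 each time. The groups are nested, so A3galt2 counts in both of its groups, and the genes were chosen with these values known, so the share is no comparison with chance. Ugcg was at 185 CPM in it and at 104 to 128 CPM in the other 5 libraries labelled Q84. A3galt2 was at 37.5 CPM in it, against 4.34 to 10.8 CPM in the other 5 libraries labelled Q84 and 4.34 to 6.62 CPM in the other 4 Q84 females. St8sia1 was at 57.7 CPM in it and at 41.3 to 44.5 CPM in the other 4 Q84 females. This library held 0.0612 TPM of the Atxn3 transcript of 1000 bases, and its part in these values was not tested further.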

How the results depend on the processing

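In Q84 against WT the 8 genes kept their lower direction in all 160 alternative values with 12 libraries and all 144 with 10; 21 and 1 of these gained a call and 0 and 10 lost one, the 10 all of Ggta1. With 12 libraries the genes called went from 1 to 15 with no filter on low counts, 620 with DESeq2, 639 with the replicate block and 0 with females alone (1826 at an unadjusted p under 0.05), and from 0 to 1082 with 1 library left out (1082 without Q84 female 5, 51 without WT female 2, 42 without WT male 1). Of the 8 genes, 2, 3 and 5 were called with no filter, DESeq2 and the block, and 0 to 6 with 1 library left out (6 without Q84 female 5, 3 without WT female 2, 2 without WT male 1). With 10 libraries the genes called went from 1208 to 1934 with DESeq2 and 701 with the replicate block, and from 681 (without Q84 male 1) to 1978 (without WT male 1); 739 were called without WT female 3. Between 5 and 7 of the 8 were called in these fits. B4galt6 had the opposite sign in females alone (0.0044). For sex the genes called went from 12 to 21 with DESeq2, 7 with the block and 7 with WT alone, and from 6 (without Q84 male 1) to 23 (without WT female 1), with 0 of the 8 in each. The sign of small sex differences turned: Ugcg 0.016 with the block, 0.037 with WT alone and -0.14 to 0.037 with 1 library left out, A3galt2 0.21 with the block, 0.24 with 10 libraries and -0.33 to 0.22, Gcnt4 0.16 with WT alone and -0.24 to 0.16, B4galnt1 -0.11 to 0.11. The replicate numbers share only a number: same-numbered females had correlations of -0.01, -0.13 and 0.09, and the block takes Q84 female 4 and, with 12 libraries, Q84 female 5 out of the comparison, since no WT library has number 4 or 5. Depth limits Gcnt4 most, with 68 counts in Q84 male 1.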
